A study of Homo sapiens with 12 samples.

Results

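Expression of 9 genes of the T-cell surface was examined on arrays of HEL and UKE1 cells: CD3D, CD3E and CD3G, which encode the delta, epsilon and gamma chains of CD3; CD247, which encodes the zeta chain; the coreceptor CD4; the adhesion receptor CD2; the surface receptors CD5 and CD7; and the kinase LCK. They are 9 of the 18417 genes tested. The members were listed by name, with earlier results of these arrays known, and the row of each gene was chosen by its highest mean level over the arrays. That step selected nothing here, since each of the 9 symbols had 1 row only, so no row was preferred for its values. How far the differences below weighed in drawing up the list is not recorded, so counts over the members describe this list and are not independent evidence about T-cell genes.

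HEL and UKE1 are established human lines labelled as erythroleukemia cells, and both carry the JAK2V617F mutation. Each was cultured with 250 nM ITF2357 (givinostat) or with no drug for 6 h. ITF2357 is an inhibitor of histone deacetylases. Each of the 4 groups held 3 arrays, called independent triplicates in the series, and p-values here rest on the spread among those arrays. Each line is a single line, so a difference between HEL and UKE1 is one between these 2 lines. Horse serum and hydrocortisone were added to the medium of UKE1 and not to that of HEL, so line and medium cannot be told apart. Within a group, r between arrays was 0.994 to 0.996 across all rows. Precision is limited by the number of arrays, and without detection flags in the table no gene is described as absent.

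In T cells the antigen receptor cannot signal by itself. It is carried to the surface with the CD3 dimers and the zeta dimer, whose cytoplasmic tails hold the tyrosine motifs that LCK phosphorylates; the kinase ZAP70 then docks on them. LCK is held near the receptor by CD4 or CD8, while CD2 binds CD58 on other cells, CD5 dampens receptor signals, and CD7 marks T cells and NK cells from an early stage. CD4 is also found on monocytes and CD7 on some myeloid leukemia cells.

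Promoter windows of 300 bases, from 250 before to 50 after the annotated start, were taken from RefSeq (GRCh38.p14). They were found for 4 of the 9 members, CD3D, CD247, CD2 and LCK, with 5 windows in all because LCK has 2 starts. The windows of CD3D, LCK and CD247 are shown because CD3D and LCK differed strongly between the lines and fell with the drug in UKE1, and CD247 did neither to a like extent. They lie at chr11:118342656-118342955 on the minus strand for CD3D, at chr1:32251015-32251314 and chr1:32273871-32274170 on the plus strand for LCK, and at chr1:167518480-167518779 on the minus strand for CD247. Each is written 5′ to 3′ on the gene's strand, and capitals mark TGTGGT, a core bound by RUNX factors, or AGGAAG, a core bound by ETS factors, on either strand.
CD3D: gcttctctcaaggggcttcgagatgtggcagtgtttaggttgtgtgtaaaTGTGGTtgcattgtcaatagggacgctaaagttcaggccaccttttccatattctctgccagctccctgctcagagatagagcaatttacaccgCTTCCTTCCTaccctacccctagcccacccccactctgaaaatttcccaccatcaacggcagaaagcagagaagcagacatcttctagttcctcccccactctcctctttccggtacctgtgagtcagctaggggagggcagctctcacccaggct
LCK, first start: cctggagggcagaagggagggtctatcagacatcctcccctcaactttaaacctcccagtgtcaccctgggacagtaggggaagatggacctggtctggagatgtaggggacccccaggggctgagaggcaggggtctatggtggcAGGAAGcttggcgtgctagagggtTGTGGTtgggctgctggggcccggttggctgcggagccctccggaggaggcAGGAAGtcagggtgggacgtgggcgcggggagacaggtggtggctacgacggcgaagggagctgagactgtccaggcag
LCK, second start: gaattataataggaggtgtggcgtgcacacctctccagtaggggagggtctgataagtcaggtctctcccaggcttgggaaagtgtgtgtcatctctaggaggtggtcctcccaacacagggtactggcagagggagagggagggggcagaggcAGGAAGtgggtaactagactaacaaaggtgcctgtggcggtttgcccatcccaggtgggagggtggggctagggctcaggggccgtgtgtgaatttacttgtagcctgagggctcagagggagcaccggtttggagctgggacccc
CD247: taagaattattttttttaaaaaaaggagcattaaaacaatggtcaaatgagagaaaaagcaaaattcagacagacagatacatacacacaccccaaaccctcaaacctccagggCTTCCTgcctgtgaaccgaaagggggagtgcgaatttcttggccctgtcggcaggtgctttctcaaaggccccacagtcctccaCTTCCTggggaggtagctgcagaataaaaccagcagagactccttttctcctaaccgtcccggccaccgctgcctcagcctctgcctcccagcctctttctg

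The letters searched were chosen after these windows had been read. The CD3D window held TGTGGT 200 bases before the start and AGGAAG on the opposite strand at 106 and 102 bases, where the 2 matches overlap. The first LCK window held TGTGGT at 80 bases and AGGAAG at 104 and 29 bases before the start, and the second LCK window held AGGAAG at 96 bases. The CD247 window held AGGAAG on the opposite strand at 136 and 52 bases, and the CD2 window held neither. TGTGGT was thus in 2 of the 5 windows and in 13.1% of all 35116 promoter windows of that length, and AGGAAG was in 4 of the 5 and in 33.6% of all. AGATAA, a form of the site read by GATA factors, was in 0 of the 5 windows and in 10.3% of all. Other forms of that site were not searched, so the 0 is a count of AGATAA only. The E-box CANNTG was in 4 of the 5 and in 68.7% of all. These matches are a description of letters, and binding was not measured.

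The 3 CD3 chains and LCK were far higher in UKE1 than in HEL without drug, CD247 was slightly higher, CD2 and CD7 were lower, and CD4 and CD5 did not pass the test. All values below are log2 levels of the array, and levels of different genes are not set against each other, since each has its own probes. In these bulk cultures, fewer cells that express a gene and less RNA per cell cannot be told apart.

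CD3G, the gamma chain, read 4.11, 4.29 and 4.07 on the 3 HEL arrays and 9.91, 9.97 and 9.90 on the 3 UKE1 arrays. The UKE1 arrays lay close together and far above every HEL array. The difference was 5.77 on the log2 scale (SE 0.0691), or 54.5-fold in array signal (limma, Benjamini-Hochberg adjusted p = 1.66e-16), and 16 of the 18417 genes had a larger difference in favour of UKE1. At levels near 4 or 5 on this array, how much of the signal of the CD3 genes in HEL is background was not measured, so the folds of these genes describe signal and need not equal those of the RNA.

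CD3D, the delta chain, read 4.29, 4.50 and 4.12 in HEL and 9.17, 9.10 and 9.18 in UKE1. Its HEL arrays were more spread out (SD 0.192, n = 3) than its UKE1 arrays (SD 0.0453, n = 3), and the groups did not overlap. The difference was 4.84 (SE 0.134), or 28.7-fold (limma adjusted p = 5.28e-13). CD3E, the epsilon chain, which pairs with either of the others, read 4.92, 5.04 and 4.92 in HEL and 8.53, 8.58 and 8.58 in UKE1. The groups were again well apart, by 3.61 (SE 0.0716), or 12.2-fold (limma adjusted p = 1.62e-14). Of all genes tested, 184, or 0.999%, passed the threshold with a level at least 8-fold higher in UKE1, and the 3 CD3 chains were among them.

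CD247, the zeta chain encoded on another chromosome, read 4.99, 5.06 and 5.07 in HEL and 5.45, 5.73 and 5.51 in UKE1. The groups did not overlap, but the difference was 0.52 (SE 0.0801), or 1.43-fold (limma adjusted p = 5.18e-05), and 3208 genes had a larger one in the same direction. LCK, the kinase that starts the signal, read 5.54, 5.76 and 5.74 in HEL and 7.95, 7.90 and 7.88 in UKE1. All UKE1 arrays were higher, by 2.23 on average (SE 0.0842), or 4.70-fold (limma adjusted p = 1.58e-11), and 343 genes had a larger difference in this direction.

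CD2, the adhesion receptor, went the other way and read 6.60, 6.39 and 6.66 in HEL and 5.88, 5.66 and 5.66 in UKE1. UKE1 was lower by 1.76-fold, a log2 difference of -0.81 (limma adjusted p = 1.14e-06), with no overlap. CD7 read 8.61, 8.63 and 8.70 in HEL and 8.39, 8.32 and 8.40 in UKE1. This was a small separation, -0.28 or 1.21-fold (limma adjusted p = 0.000598), between tight groups.

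CD4, the coreceptor, read 7.84, 7.88 and 7.86 in HEL and 7.90, 7.96 and 7.65 in UKE1, and the UKE1 arrays spanned those of HEL. The difference was -0.02 with a 95% confidence interval from -0.20 to 0.15 (limma adjusted p = 0.818). CD5, the inhibitory receptor, read 5.64, 5.67 and 5.63 in HEL and 5.51, 5.51 and 5.52 in UKE1. Its UKE1 arrays all lay below the HEL arrays, but the difference of -0.13 (95% interval -0.30 to 0.03) did not pass the test (limma adjusted p = 0.135).

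Thus 5 members were higher and 2 lower in untreated UKE1, against 33.3% of all genes higher and 34.4% lower, and 67.7% of all genes passed this test. The arrays of the lines did not overlap for 8 of the 9 members, where 69.4% of all genes showed this. At 2-fold or more, 4 members passed, CD3D, CD3E, CD3G and LCK, against 15.6% of all genes. The median difference was 0.52 over the members and -0.00 over all genes.

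**Figure D1:**
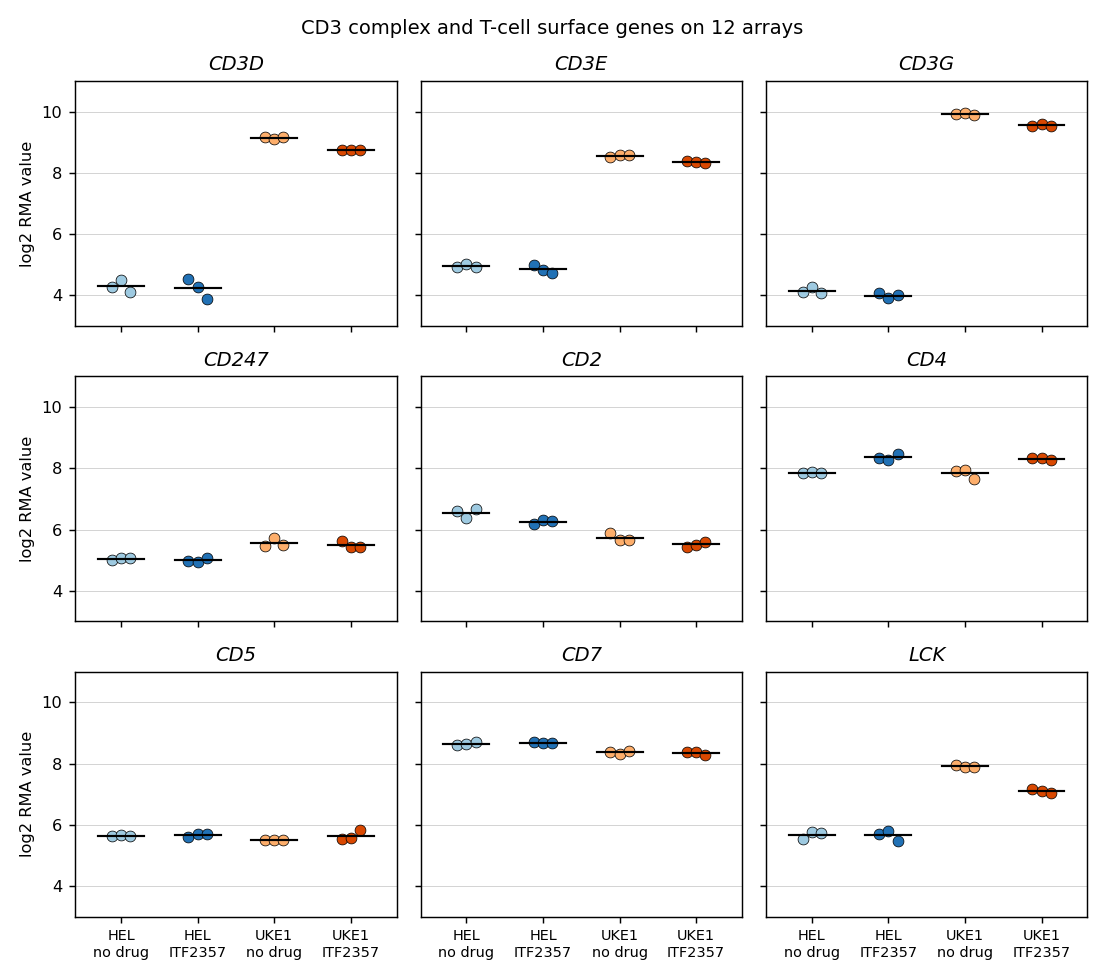
Log2 RMA value (vertical axis) of each of the 9 genes on all 12 arrays, 3 points per group, with the group mean as a line; the 4 groups are HEL and UKE1 with no drug or ITF2357. CD3D, CD3E and CD3G lie between 3.88 and 5.04 on HEL arrays and between 8.31 and 9.97 on UKE1 arrays, and CD4 is higher on the treated arrays of both lines.

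Under ITF2357 in UKE1, LCK fell most among the members, the 3 CD3 chains fell by smaller amounts, CD4 rose, and CD247, CD2, CD5 and CD7 did not pass the test. LCK went from 7.95, 7.90 and 7.88 without drug to 7.16, 7.10 and 7.05 with it. The treated arrays were all lower, by a mean of -0.81 (95% interval -0.99 to -0.63), or 1.75-fold (limma adjusted p = 2.49e-06). Of all genes, 718 fell further in this line.

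CD3G went from 9.91, 9.97 and 9.90 to 9.54, 9.61 and 9.55. This fall of all arrays was -0.36 (95% interval -0.51 to -0.21), or 1.28-fold (limma adjusted p = 0.000614). CD3G kept this call in all 19 alternative settings in which it was tested.

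CD3D went from 9.17, 9.10 and 9.18 to 8.76, 8.74 and 8.75. The groups were separate, with a change of -0.40 (95% interval -0.69 to -0.11), or 1.32-fold (limma adjusted p = 0.0263). The call was lost when untreated UKE1 replicate 1 (adjusted p = 0.0642) or 3 (0.0640), or treated UKE1 replicate 1 (0.0577), 2 (0.0612) or 3 (0.0626) was left out, and with all rows of the table in the fit (0.0570). The model uses 1 spread for all groups, and for CD3D that spread came mainly from the treated HEL arrays (SD 0.340, n = 3, against 0.00866 in treated UKE1); fitted to the 6 UKE1 arrays alone, limma gave an adjusted p of 0.000375.

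CD3E went from 8.53, 8.58 and 8.58 to 8.39, 8.36 and 8.31, without overlap. The change was -0.21 (95% interval -0.36 to -0.05), or 1.16-fold (limma adjusted p = 0.0289). This call was lost without untreated UKE1 replicate 2 (adjusted p = 0.0742) or 3 (0.0743), and without treated UKE1 replicate 2 (0.0625) or 3 (0.0930).

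CD4 went from 7.90, 7.96 and 7.65 to 8.35, 8.34 and 8.27 in UKE1. Every treated array was above every untreated one, the lowest of which was replicate 3. The rise was 0.48 (95% interval 0.31 to 0.66), or 1.40-fold (limma adjusted p = 0.000200).

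CD2 went from 5.88, 5.66 and 5.66 to 5.44, 5.50 and 5.60 in UKE1. The treated arrays were lower, but the change of -0.22 (95% interval -0.40 to -0.04) had a limma adjusted p of 0.0515. It passed after quantile normalization, at -0.26 (adjusted p = 0.0270), after median centring, at -0.26 (adjusted p = 0.0300), and when single arrays were left out, namely untreated HEL replicate 2 (adjusted p = 0.0322) or 3 (0.0465), untreated UKE1 replicate 2 (0.0499) or 3 (0.0482), or treated UKE1 replicate 3 (0.0428). CD247 changed by -0.07 (95% interval -0.24 to 0.10; limma adjusted p = 0.529), CD7 by -0.02 (adjusted p = 0.803) and CD5 by 0.12 (95% interval -0.04 to 0.29; adjusted p = 0.225). For CD5, treated replicate 3 stood at 5.83 and the other UKE1 arrays at 5.51 to 5.56.

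In all, 4 members fell and 1 rose in UKE1, where 22.3% of all genes fell, 22.0% rose and 44.3% passed in either direction. The 5 calls became 3 without treated UKE1 replicate 2, since CD3D and CD3E were lost together. Both were also lost without untreated or treated UKE1 replicate 3, where CD2 gained a call. The arrays of the groups were separate for 7 members, and for 53.9% of all genes. The median change was -0.21 over the members and 0.01 over all genes. The untreated UKE1 arrays enter both this comparison and that of the untreated lines, so the fall of genes that were higher in UKE1 is not independent of that difference.

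In HEL, CD4 rose and CD2 fell, and the CD3 chains and LCK did not pass the test. CD4 went from 7.84, 7.88 and 7.86 without drug to 8.34, 8.26 and 8.48 with it. The gap between the groups was wide against their spread, with a rise of 0.50 (95% interval 0.33 to 0.68), or 1.42-fold (limma adjusted p = 0.000142). CD2 went from 6.60, 6.39 and 6.66 to 6.18, 6.30 and 6.29. The treated arrays lay lower without overlap, and the change was -0.29 (95% interval -0.47 to -0.10), or 1.22-fold (limma adjusted p = 0.0140). It was not called without untreated HEL replicate 3 (adjusted p = 0.0651) or treated HEL replicate 1 (adjusted p = 0.0583).

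LCK read 5.54, 5.76 and 5.74 without drug and 5.69, 5.80 and 5.48 with it in HEL. These arrays overlapped fully, with a difference of -0.02 (95% interval -0.20 to 0.16; limma adjusted p = 0.871). CD3G read 4.11, 4.29 and 4.07 without drug and 4.06, 3.90 and 4.01 with it. Its treated arrays were just below the untreated ones, and the change of -0.17 had a limma adjusted p of 0.0690, which became 0.0407 (change -0.21) without untreated HEL replicate 3.

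CD3D read 4.55, 4.28 and 3.88 on the treated HEL arrays, a range that spanned the untreated ones, and its change was -0.07 (limma adjusted p = 0.732). CD3E read 5.00, 4.84 and 4.73 with drug, overlapping the untreated arrays, and changed by -0.10 (adjusted p = 0.311). CD247 changed by -0.05 (adjusted p = 0.661), CD5 by 0.02 (adjusted p = 0.868) and CD7 by 0.03 (adjusted p = 0.754).

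So 1 member rose and 1 fell in HEL, where 22.6% of all genes rose, 19.9% fell and 42.4% passed in either direction. The 2 calls became 1 without treated HEL replicate 1. The arrays did not overlap for 3 members, CD3G, CD2 and CD4, against 49.0% of all genes. The median change was -0.05 over the members and -0.01 over all genes.

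LCK was the member whose response differed between the lines. The UKE1 response minus the HEL response was -0.79 (SE 0.119, 95% interval -1.05 to -0.53; limma adjusted p = 0.000321), and over its 18 alternative settings it lay between -0.88 and -0.72, with adjusted p-values from 4.81e-05 to 0.00170. This test passed for 23.9% of all genes. Of the 18417 genes, whether they passed or not, 512 had a more negative difference. For the CD3 chains the differences did not pass: CD3D -0.33 (95% interval -0.74 to 0.08; adjusted p = 0.244), CD3E -0.11 (-0.33 to 0.11; adjusted p = 0.487) and CD3G -0.19 (-0.40 to 0.02; adjusted p = 0.178). The falls of the CD3 chains in UKE1 are therefore not shown to differ from their values in HEL, although CD3D passed without treated HEL replicate 3 (-0.51, adjusted p = 0.0220). The differences of CD4 (-0.02, 95% interval -0.27 to 0.22; adjusted p = 0.920) and CD2 (0.07, 95% interval -0.19 to 0.33; adjusted p = 0.741) were small, and those of CD247, CD5 and CD7 had adjusted p-values of 0.932, 0.552 and 0.718.

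**Figure D2:**
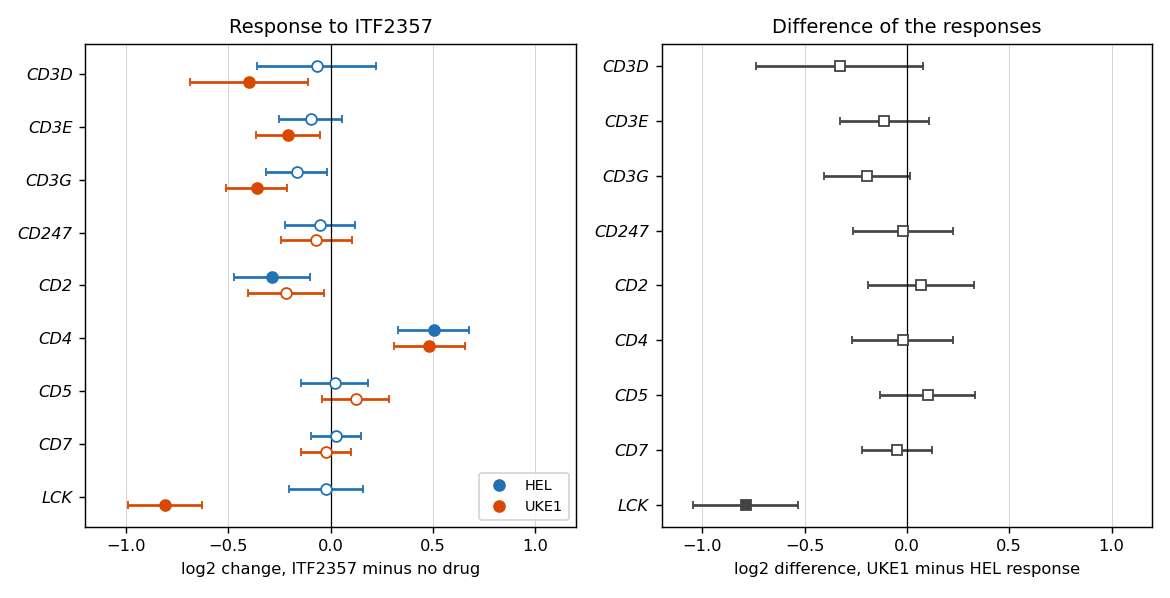
Left, log2 change with ITF2357 in HEL (blue) and UKE1 (orange); right, UKE1 response minus HEL response on the log2 scale. Points are limma estimates, bars 95% confidence intervals, and filled points passed the adjusted threshold of 0.05. LCK, at -0.81 in UKE1 and -0.02 in HEL, is the filled point on the right, and CD4 lies near 0.5 in both lines.

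The contrast between the lines persisted under the drug. In treated cells, UKE1 exceeded HEL 47.6-fold for CD3G (log2 difference 5.57, limma adjusted p = 2.39e-16), 22.9-fold for CD3D (4.51, adjusted p = 1.34e-12) and 11.3-fold for CD3E (3.50, adjusted p = 2.59e-14). LCK was 2.72-fold higher (1.44, adjusted p = 2.13e-09) and CD247 1.42-fold (0.50, adjusted p = 7.41e-05). CD2 was lower by 1.68-fold (-0.74, adjusted p = 2.95e-06) and CD7 by 1.25-fold (-0.33, adjusted p = 0.000154), while CD4 (-0.04, adjusted p = 0.644) and CD5 (-0.03, adjusted p = 0.728) did not pass. Again 7 of the 9 members passed, against 68.0% of all genes.

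Over the 4 groups, CD3D, CD3E, CD3G, CD247 and LCK shared 1 order, untreated UKE1, treated UKE1, untreated HEL, treated HEL. For CD3D, CD3E and LCK the neighbouring groups that overlapped were those of HEL, for CD247 those of each line, and for CD3G none did. CD2 ran from untreated HEL through treated HEL and untreated UKE1 to treated UKE1, with no overlap between neighbours. CD4 was ordered by drug, with the treated groups of both lines overlapping each other and the untreated groups likewise. CD7 was ordered by line, and its groups overlapped within each line.

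CD3E, CD3D and CD3G lie side by side on chromosome 11, so their nearest measured neighbours outside the group were MPZL2, an adhesion protein gene, beside CD3E, and UBE4A, a ubiquitin ligase gene, beside CD3G. MPZL2 was also higher in untreated UKE1, by 3.21 (limma adjusted p = 2.33e-12), but with ITF2357 it rose in UKE1 by 0.91 (adjusted p = 4.69e-06) and in HEL by 0.63 (adjusted p = 0.000145). UBE4A was lower in untreated UKE1, at -0.88 (adjusted p = 5.10e-07), and rose by 0.97 in UKE1 (adjusted p = 5.45e-07) and 0.60 in HEL (adjusted p = 5.25e-05). The genes on both sides of the CD3 cluster thus rose in UKE1 while the 3 CD3 genes fell.

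Beside CD5 lies CD6, which encodes a related surface protein of T cells. CD6 was higher in untreated UKE1 by 1.94 (limma adjusted p = 1.31e-10) and fell there with drug by 0.88 (adjusted p = 1.76e-06). In HEL it changed by 0.04 (adjusted p = 0.744), and CD5 itself passed in none of these comparisons. STYXL2, beside CD247, was higher in untreated UKE1 by 3.41 (adjusted p = 1.30e-13) and fell there by 0.63 (adjusted p = 2.19e-05), and CREG1 on the other side rose in UKE1 by 0.70 (adjusted p = 5.62e-07) and in HEL by 0.73 (adjusted p = 4.20e-07). Beside LCK, FAM167B passed in none of the 3 comparisons, and HDAC1, which encodes a histone deacetylase, rose in HEL by 0.44 (adjusted p = 3.78e-05) and in UKE1 by 0.25 (adjusted p = 0.00449). Next to CD4, GPR162 rose with drug in HEL by 0.59 and in UKE1 by 0.36, as CD4 did, and LAG3 passed in none. Around CD2, PTGFRN was lower in untreated UKE1, at -2.57, and LINC02868 higher, at 0.38, and neither passed with drug. SECTM1 and CSNK1D, on the sides of CD7, were lower in untreated UKE1, at -0.81 and -0.40. With drug CSNK1D fell by 0.30 in HEL and 0.37 in UKE1, and SECTM1 did not pass.

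**Figure D3:**
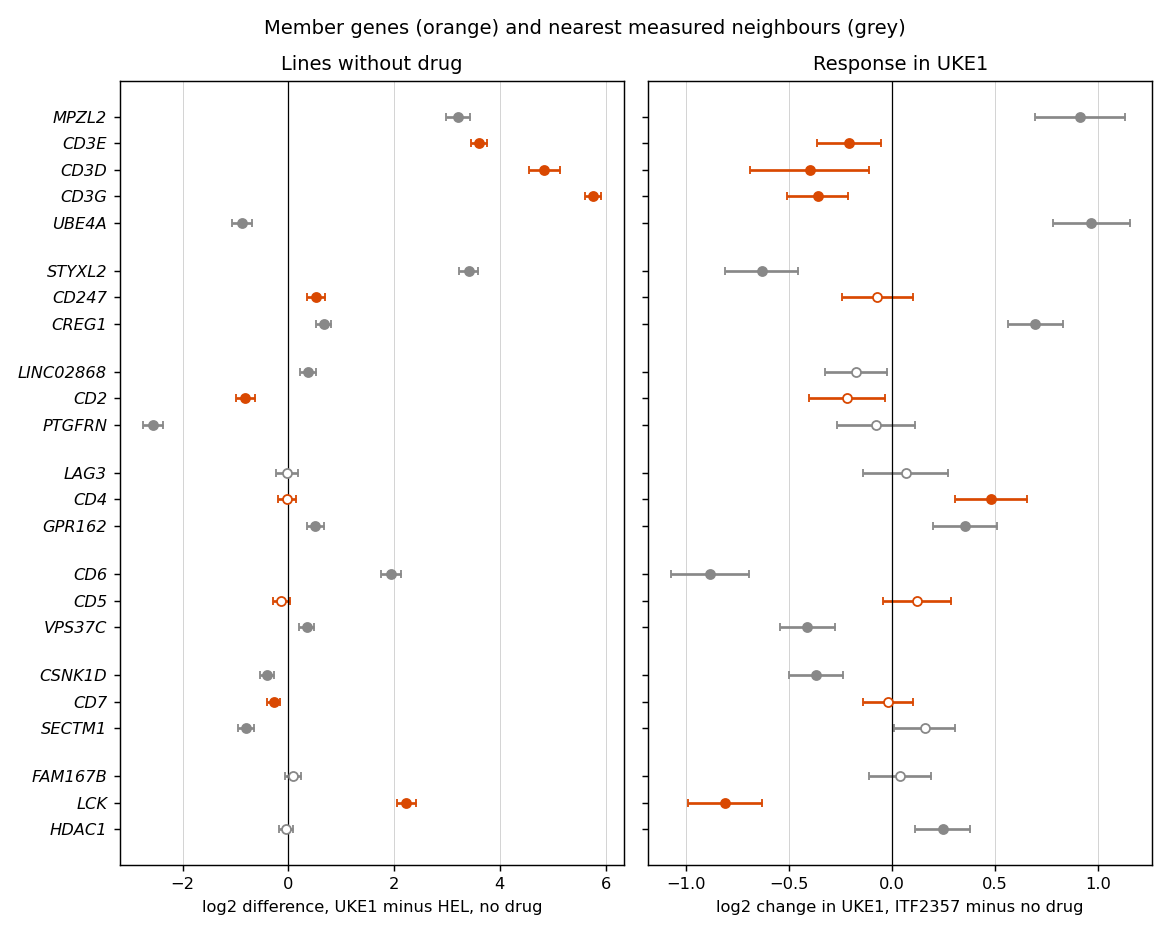
Log2 difference between untreated UKE1 and HEL (left) and log2 change with ITF2357 in UKE1 (right) for the members (orange) and the nearest measured gene on each side (grey), in the order of the chromosome within each block. Points are limma estimates, bars 95% confidence intervals, and filled points passed the adjusted threshold of 0.05; MPZL2 and UBE4A lie at 0.91 and 0.97 on the right, and CD3E, CD3D and CD3G between them lie below 0.

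For each member whose group means spanned at least 0.5, the 3 genes with the most similar pattern over the 4 group means were found by root mean square distance on the log2 scale, after centring. For CD3D these were ABLIM1 (0.0727), PTPRM (0.0952) and CLEC7A (0.108), for CD3E ZNF737 (0.100), CRISP2 (0.107) and ZEB1 (0.109), and for CD3G CLEC1A (0.145), DOCK10 (0.156) and VNN2 (0.188). LCK was nearest to CC2D2A (0.0529), CCN2 (0.0658) and CALN1 (0.0683). CD4 was nearest to RAB9A, DAPK3 and SLC68A1, CD2 to PRPF38A, MAD2L1BP and NUP42, and CD247 to TAAR2, RASGEF1C and SGSH. None of these is a member, and CD5 and CD7 spanned too little to be matched.

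Of 28 listed genes of T-cell receptor signalling, 25 were measured. In HEL 10 rose and 6 fell, with a median of 0.08, against 22.6% and 19.9% of all genes. In UKE1 7 rose and 12 fell, with a median of -0.11, against 22.0% and 22.3%. LAT, the adaptor phosphorylated by ZAP70, fell by 0.98 in HEL (limma adjusted p = 7.21e-08) and by 1.56 in UKE1 (adjusted p = 1.33e-09). TXK, a kinase of the TEC family, rose by 1.27 in HEL and 1.15 in UKE1, PLCG1, a phospholipase, rose by 1.69 in HEL and 0.74 in UKE1, and PRKCQ, the T-cell protein kinase C theta, fell by 0.65 in HEL and 0.99 in UKE1. Between untreated lines, 13 of these 25 genes were higher and 7 lower in UKE1, against 33.3% and 34.4% of all genes, among them RASGRP1, a RAS activator, at 3.35 and UBASH3A, a negative regulator, at -3.81.

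Genes named here after their values were seen are ZAP70 and TRBC1. ZAP70 was higher in untreated UKE1 by 0.79 (limma adjusted p = 8.85e-07), fell there with drug by 0.36 (adjusted p = 0.00224) and changed by -0.03 in HEL (adjusted p = 0.823). TRBC1, a constant segment of the T-cell receptor beta chain, had means of 5.24 in untreated HEL and 6.42 in untreated UKE1, a difference of 1.18 (adjusted p = 2.25e-09), and changed by -0.11 with drug in UKE1 (adjusted p = 0.219).

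Of 16 SRC family kinases and LCK regulators, 15 were measured. In HEL 11 passed, 7 rising and 4 falling, against 42.4% of all genes, and in UKE1 8 passed, 5 rising and 3 falling, against 44.3%; the medians were 0.18 and 0.07. PAG1, the anchor that brings the inhibitory kinase CSK to SRC kinases, rose by 1.81 in HEL (limma adjusted p = 1.09e-09) and 1.57 in UKE1 (adjusted p = 1.30e-09). FYN, the other SRC kinase of T cells, rose by 1.23 in HEL and 0.71 in UKE1. FRK rose by 0.30 in HEL and 0.84 in UKE1, there from a low mean of 3.80 to 4.64. UNC119, which binds the lipid tail of SRC kinases, rose by 1.12 in HEL and 0.72 in UKE1. PTPN22, a phosphatase that acts on LCK, and PAG1 were higher in untreated UKE1, by 1.04 and 1.00.

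Among other T-cell surface genes, 21 of 24 were measured, and in each line 3 rose and 5 fell with drug, with medians of 0.00 in HEL and 0.02 in UKE1. These 8 of 21 compare with 42.4% of all genes in HEL and 44.3% in UKE1, so the share was near the background. SLAMF1 rose by 0.86 in HEL and 0.81 in UKE1, CD69, an activation marker, rose by 0.87 in HEL and 0.72 in UKE1, and CD226 fell by 0.78 in HEL and 1.01 in UKE1. CD8B fell by 0.80 in HEL and changed by 0.10 in UKE1 (limma adjusted p = 0.585). Without drug 10 of the 21 were higher and 6 lower in UKE1, against 33.3% and 34.4% of all genes, and the largest differences were toward HEL, ICOS at -4.05 and CD226 at -2.62. Toward UKE1 the largest difference was that of CD6, at 1.94. The higher levels of the CD3 chains in UKE1 thus stood beside lower levels of ICOS and CD226, other receptors of T cells. More genes of this list were higher in UKE1, 10 of the 21, than lower.

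All 15 listed ligands and partners were measured, and 10 passed in HEL, 7 rising and 3 falling, against 42.4% of all genes, and 9 in UKE1, 5 rising and 4 falling, against 44.3%. CD59, a complement inhibitor, rose by 1.01 in HEL and 0.65 in UKE1, and CD53, a tetraspanin, rose by 0.90 in HEL and 0.33 in UKE1. NCR1, an NK receptor that signals through the zeta chain, fell by 0.85 in HEL and 0.79 in UKE1. CD48, a relative of CD58, rose by 1.71 in HEL and changed by 0.24 in UKE1 (limma adjusted p = 0.0879). PSTPIP1, which binds the tail of CD2, fell by 0.34 in UKE1 and changed by -0.18 in HEL (limma adjusted p = 0.0899). Without drug, 5 were higher and 9 lower in UKE1, where 33.3% of all genes were higher and 34.4% lower, with CD48 at 2.00 and NCR3 at -2.29.

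Of 24 transcription factors and recombination genes of T cells, 22 were measured. In HEL 6 passed, 4 rising and 2 falling, against 42.4% of all genes, and in UKE1 11 passed, 7 rising and 4 falling, against 44.3%. ETS1, a factor of the ETS family expressed in T cells, rose by 0.99 in HEL (limma adjusted p = 2.21e-08) and by 1.83 in UKE1 (adjusted p = 1.29e-10). HES1, a target of NOTCH signals, rose by 0.31 in HEL and 0.79 in UKE1, and ID2, an inhibitor of E proteins, rose by 0.31 in HEL and 1.27 in UKE1. LEF1 rose by 0.45 in HEL and changed by -0.13 in UKE1 (limma adjusted p = 0.423), and TOX fell by 1.14 in UKE1 and changed by -0.16 in HEL (limma adjusted p = 0.137). TOX was higher in untreated UKE1 by 3.94 and LEF1 lower, at -3.30, with 10 of the 22 genes higher and 6 lower, against 33.3% and 34.4% of all genes.

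**Figure D4:**
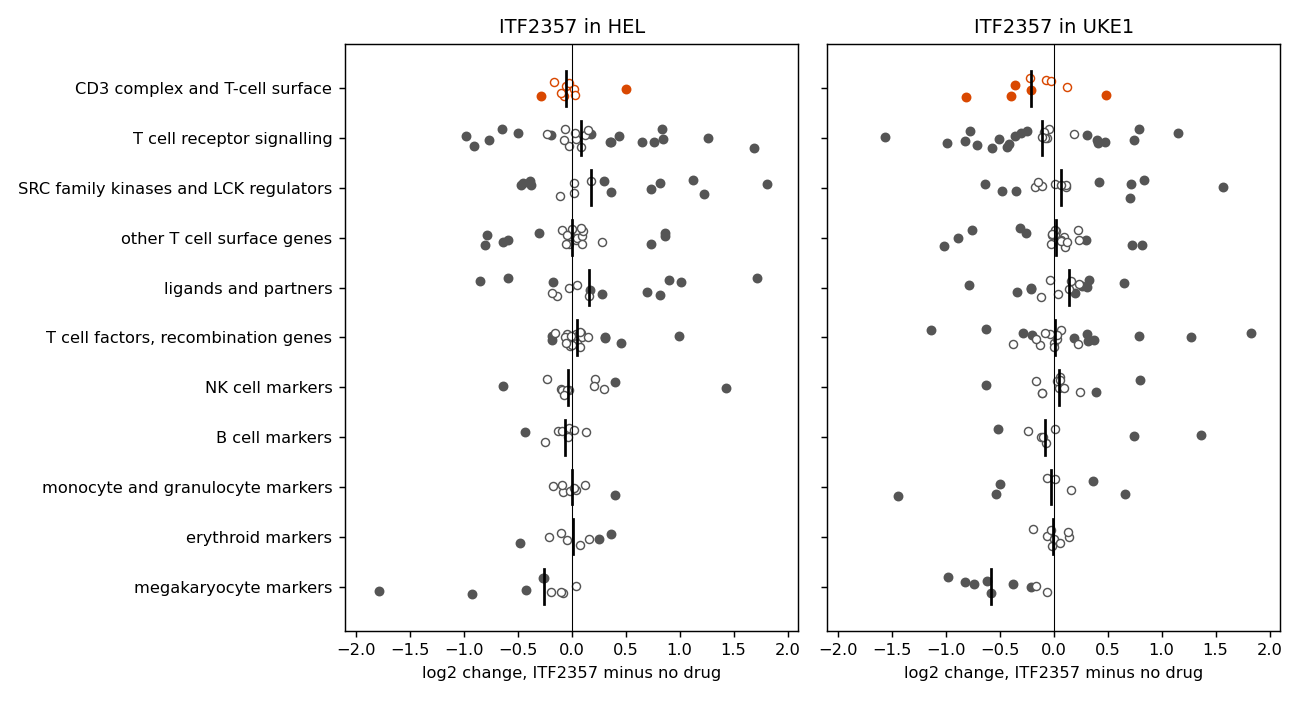
Log2 change with ITF2357 in HEL (left) and UKE1 (right) of every measured gene of each list; filled points passed the adjusted threshold of 0.05 in limma and vertical bars are list medians. The CD3 complex and T-cell surface genes (orange) have medians of -0.05 and -0.21, and the megakaryocyte markers -0.25 and -0.58.

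Markers of other blood cells were compared between the untreated lines as well, where 33.3% of all genes were higher in UKE1 and 34.4% lower. Of 8 B cell markers measured out of 10 listed, 7 were higher in untreated UKE1, CD22 by 2.36 and CD79B by 1.61, and their mean log2 level was 5.28 to 5.43 on the HEL arrays and 6.24 to 6.30 on the UKE1 arrays. Of 12 NK cell markers, 4 were higher and 3 lower, KLRF1 by 3.31 and NCAM1 by 3.10, with mean levels of 4.78 to 4.91 in HEL and 5.47 to 5.50 in UKE1. Of 8 monocyte and granulocyte markers measured out of 10, 4 were higher and 2 lower, CSF1R by 4.45 and ITGAM by 2.18, with mean levels of 6.74 to 6.80 and 7.66 to 7.79. The median difference was 0.61 over the B cell markers, 0.15 over the NK cell markers and 0.13 over the monocyte and granulocyte markers. Single differences ran from -0.76 to 3.31 among the NK cell markers. Among the monocyte and granulocyte markers they ran from -0.51 to 4.45, so the genes named above are the largest and not typical of these 2 lists. The part of all these markers in the higher CD3 and LCK levels of UKE1 was not tested.

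The erythroid label was checked on 8 of 14 listed markers, the other 6 being not analysed here. In untreated UKE1, 7 of the 8 were lower than in HEL and 1 was higher, against 34.4% and 33.3% of all genes, with a median of -1.21 and mean levels of 6.49 to 6.50 against 7.79 to 7.83 in HEL. ALAS2, the first enzyme of heme synthesis in red cells, was at -3.52 and KLF1, an erythroid factor, at -1.82. With drug, 2 rose and 1 fell in HEL, against 22.6% and 19.9% of all genes. There KLF1 fell by 0.47, SLC4A1 rose by 0.36 and TFRC rose by 0.25. In UKE1 limma called 0 of the 8, against 44.3% of all genes, with 1 at an unadjusted p under 0.05. Of 9 megakaryocyte markers measured out of 10, 2 were higher in untreated UKE1, PPBP by 4.04 and VWF by 2.58, and 6 were lower. The lowest was GP1BA, at -2.06, and the median over the 9 was -0.87.

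With drug, 5 of 9 megakaryocyte markers fell in HEL and 4 did not pass, against 19.9% of all genes falling, and 7 fell in UKE1 and 2 did not pass, against 22.3%. Those that fell included GP6, at -1.78 in HEL and -0.82 in UKE1, GP1BA at -0.92 and -0.74, and SELP at -0.25 and -0.98. PF4 was at -0.43 in HEL and at -0.16 in UKE1, where it did not pass (limma adjusted p = 0.345). Its call in HEL was lost without untreated HEL replicate 1 (adjusted p = 0.0596) or 3 (0.0721) or treated HEL replicate 2 (0.0766). In UKE1, 3 of 12 NK cell, 3 of 8 B cell and 5 of 8 monocyte and granulocyte markers passed, against 44.3% of all genes. There CSF1R fell by 1.44, LYZ fell by 0.53 and ITGAM rose by 0.66, CD22 rose by 1.37, PAX5 rose by 0.75 and CD79A fell by 0.52, and NCAM1 rose by 0.80, KLRF1 rose by 0.39 and NKG7 fell by 0.62. In HEL, 3 of 12 NK cell, 1 of 8 B cell and 1 of 8 monocyte and granulocyte markers passed, against 42.4% of all genes. There PRF1 rose by 1.43, GZMB fell by 0.63, NCAM1 rose by 0.40, CD68 rose by 0.40, as it did by 0.37 in UKE1, and MS4A1 fell by 0.43, from a low mean of 3.93 to 3.49. Their part in the changes of LCK, CD4 and the CD3 chains was not tested.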

How the data were processed

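Total RNA of 12 cultures was hybridised to Affymetrix Gene 1.0 ST arrays. The authors summarised them with RMA in Affymetrix Expression Console, per the submitters' processing notes. Tool versions and the genome build were not given in the sources used here. Deposited values ran from 1.26 to 14.36 and were taken to be log2 because of that range; the base is unstated. Of 33297 rows, 19460 carried 1 gene symbol in GEO's platform annotation, 1754 several and 12083 none; rows of a single symbol, the highest-mean row per symbol, gave 18417 genes. For 19429 rows the RefSeq table of GRCh38.p14 held the gene ID; it was used for names and for which genes are neighbours.

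A mean per group was fitted with limma 3.58.1 in R 4.3.3 (lmFit and eBayes, 8 residual degrees of freedom), two-sided, with Benjamini-Hochberg adjustment over all 18417 genes and a threshold of 0.05. A gene rose or fell when it passed; changes are log2 with standard errors or 95% intervals. The fit was tested on simulated data in which a far smaller share of genes changed than passed here. That test therefore does not cover shares as large as those of these arrays. The members and lists were chosen with earlier results of these data known, and the T-cell receptor gene TRBC1 was added later.

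Genes named were all members, their nearest measured neighbours, the 3 nearest patterns, and of each list up to 3 called genes with the largest change per drug comparison and up to 2 between untreated lines, each with its value in the other line where given; ZAP70 and TRBC1 fall outside this rule. Alternatives were other scalings (quantile, median), a filter on low values, all rows, mean of a gene's rows, trended robust prior, 2 groups only, a replicate block and leaving out each array.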

Additional observations from a re-analysis of the deposited data

Results flagged for a closer look

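The response of LCK to ITF2357 differed between the lines by a test of the difference itself. The change in UKE1 minus the change in HEL was -0.79 on the log2 scale (limma adjusted p = 0.000321). LCK fell on all 3 treated arrays of UKE1 relative to the 3 untreated ones, while its treated and untreated arrays overlapped in HEL. Untreated LCK was also at a lower level in HEL (5.68, SD 0.121) than in UKE1 (7.91, SD 0.0356, n = 3 each), and how far a low level limits the change that can be seen in HEL was not tested.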

How the results depend on the processing

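Of 856 alternative values of the members, 835 kept their side of the threshold, 12 lost a call, 9 gained one and 0 called values turned direction; 26 of those that kept their side changed sign while uncalled in both settings. Of 2286 for the other genes named, 2265 kept their side, 14 lost and 6 gained a call. The exception in direction was HDAC1 between the untreated lines, -0.04 as deposited (adjusted p = 0.623) and 0.16 after quantile normalization (adjusted p = 0.0264); the cause was not tested. VPS37C, beside CD5, had an adjusted p of 0.0426 in HEL and lost this call in 11 settings.

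The filter on low values kept 2 of the 9 members, CD4 and CD7, so the counts of called members fell by construction, from 2 to 1 in HEL, from 5 to 1 in UKE1, from 1 to 0 for the difference of the responses, and from 7 to 1 for the lines both untreated and treated. Under this filter 69.2%, 69.5%, 40.4%, 80.2% and 79.2% of all genes passed in these comparisons. With single arrays left out, the count ranged from 1 to 2 in HEL, from 3 to 6 in UKE1 and from 1 to 2 for the difference; it was 7 throughout for both comparisons of the lines. Over the same settings 39.1% to 42.3%, 40.1% to 44.7% and 20.2% to 23.0% of all genes passed for the first 3, and 64.1% to 68.1% and 63.9% to 68.5% for the untreated and treated lines.

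Whether the replicate numbers pair the cultures is not stated, and correlations as small as these cannot settle it. Deviations of same-numbered arrays correlated at -0.09 to 0.06 in HEL and at 0.03 in UKE1. Those of differently numbered arrays correlated at -0.14 to 0.09 in HEL and at -0.03 to -0.003 in UKE1. With a replicate block the counts were 2 in HEL, 5 in UKE1, 1 for the difference and 7 for each comparison of the lines, against 42.2%, 44.0%, 23.2%, 67.6% and 67.9% of all genes, and no member's call changed.

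Median centring moved the share of increases among all called differences of the responses from 42.2% to 30.6%. The background share of the low HEL signals of CD3D, CD3E, CD3G and LCK was not measured. In untreated UKE1, CD247 read 5.56, CD2 5.74 and CD5 5.51 on average, also below the array medians of 6.41 to 6.50. The background share of the low signals of these genes, and of MS4A1 and FRK, was not measured either.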
